A study of Mus musculus with 2 samples.

Results

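The cells described here are hepatocytes that carried transcripts of serum amyloid A (Saa1 and Saa2), lipocalin 2 (Lcn2) or osteopontin (Spp1) in 2 single-cell RNA libraries of mouse liver. They are called Saa/Lcn2/Spp1 hepatocytes below. There were 307 of them among 42372 barcodes that passed the filter and 190318 barcodes in all, 37 in the WT library and 270 in the N-LKO library. Each had at least 1000 UMIs (unique molecular identifiers, 1 per captured transcript), at least 400 detected genes and at most 30% mitochondrial UMIs. Each also had at least 2 UMIs of Cps1, a urea cycle enzyme of hepatocytes. None had a UMI of Clec4f, Cd5l, C1qa, Stab2, Ptprb, Skap1, Dcn, Ebf1, S100a9 or Flt3, which mark other liver cells. At most 2 UMIs of the bile duct genes Pkhd1 and Bicc1 and under 1% of UMIs from Malat1, a nuclear RNA, were allowed. The last clause, at least 4 summed UMIs of Saa1, Saa2, Lcn2 and Spp1, separated them from the hepatocytes that met every other clause, called other hepatocytes. These measured values chose the cells, so the levels of those genes are given as a description and support nothing.

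The study compared C57BL6 male mice with and without NgBR in the liver. NgBR is encoded by Nus1 and is a subunit of cis-prenyltransferase, which makes the dolichol used to build N-glycans. N-LKO (genotype label NgBR KO, tissue label Liver plus tumor) carried floxed NgBR alleles and Cre under the albumin promoter, which acts in hepatocytes, and WT (genotype label CTRL, tissue label Liver) was the sex- and age-matched control. Both groups were switched from chow to the diet for 16 weeks, named HFD (high-fat diet) in the titles and WD in the treatment labels. The paper gives WD, a Western-type diet high in fat and cholesterol, for its single-cell work. Hepatocytes and nonparenchymal cells released by collagenase were pooled, and tumor cells were added for N-LKO, so that genotype, tumor tissue and library cannot be told apart. The deposited libraries held 85522287 UMIs for WT and 87575064 for N-LKO. Each group had 1 library, the number of mice in each was not given in the sources used here, and no test across samples was possible. All intervals are 95% intervals and cover counting error only.

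In injured or infected tissue, interleukin 6, interleukin 1 and tumor necrosis factor reach hepatocytes and activate STAT3, NF-kB and C/EBP factors. The hepatocyte then secretes acute phase proteins such as serum amyloid A, haptoglobin, hemopexin, orosomucoids and fibrinogen, and lipocalin 2, which binds bacterial iron carriers. Osteopontin is a secreted phosphoprotein that binds integrins and CD44. In liver it is best known from bile duct cells, and it is also made by macrophages and by injured or transformed hepatocytes.

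Promoters of the 4 genes of the last clause and of Saa3, a close relative that behaved differently, are printed to show how alike they are. The 250 bases before the annotated start come from RefSeq on GRCm38.p6, and all 5 genes were matched in that table. Saa1 lies at chr7:46742981-46743230 (minus strand), Saa2 at chr7:46751583-46751832 (plus strand), Saa3 at chr7:46715677-46715926 (minus strand) and Lcn2 at chr2:32387740-32387989 (minus strand). Spp1 has 2 listed starts, with windows at chr5:104434861-104435110 and chr5:104435942-104436191 (both plus strand). Capitals mark matches on either strand to the C/EBP letters TTGCNNAA or the NF-kB letters GGNNNTTCC. In each line the sequence is read 5′ to 3′ on the strand of the gene.
Saa1: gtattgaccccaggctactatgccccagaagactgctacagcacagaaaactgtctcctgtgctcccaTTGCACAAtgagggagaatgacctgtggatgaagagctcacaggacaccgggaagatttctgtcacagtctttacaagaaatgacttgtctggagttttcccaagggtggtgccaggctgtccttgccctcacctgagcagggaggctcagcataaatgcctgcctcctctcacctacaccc
Saa2: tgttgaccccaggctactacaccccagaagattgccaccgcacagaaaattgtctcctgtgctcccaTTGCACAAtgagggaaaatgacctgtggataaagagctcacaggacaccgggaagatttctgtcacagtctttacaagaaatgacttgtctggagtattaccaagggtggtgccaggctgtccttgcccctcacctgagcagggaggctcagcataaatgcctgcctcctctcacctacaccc
Saa3: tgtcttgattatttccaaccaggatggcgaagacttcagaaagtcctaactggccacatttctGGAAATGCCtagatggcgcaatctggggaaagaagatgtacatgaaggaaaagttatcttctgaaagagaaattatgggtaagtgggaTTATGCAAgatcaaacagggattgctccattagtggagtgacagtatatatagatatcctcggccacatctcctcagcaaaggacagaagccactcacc
Lcn2: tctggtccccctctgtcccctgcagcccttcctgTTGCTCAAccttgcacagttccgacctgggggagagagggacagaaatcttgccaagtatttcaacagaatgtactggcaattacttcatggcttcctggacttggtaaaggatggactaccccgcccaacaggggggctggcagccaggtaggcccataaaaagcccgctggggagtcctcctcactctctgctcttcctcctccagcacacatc
Spp1 first start: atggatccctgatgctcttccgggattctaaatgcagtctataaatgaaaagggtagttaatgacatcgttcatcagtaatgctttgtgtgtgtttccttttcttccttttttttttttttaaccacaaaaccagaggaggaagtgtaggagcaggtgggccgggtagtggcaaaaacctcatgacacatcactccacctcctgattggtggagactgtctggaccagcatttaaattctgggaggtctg
Spp1 second start: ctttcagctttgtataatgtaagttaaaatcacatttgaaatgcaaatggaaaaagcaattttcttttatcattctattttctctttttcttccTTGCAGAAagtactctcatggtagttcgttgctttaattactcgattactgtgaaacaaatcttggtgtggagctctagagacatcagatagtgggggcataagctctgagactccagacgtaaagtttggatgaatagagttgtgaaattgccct

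The Saa1 and Saa2 windows were identical at 238 of 251 aligned positions (94.8%), and Saa1 and Saa3 at 52.5%. Saa1 and Lcn2 were at 54.8%, and Saa1 and the first start of Spp1 at 47.6%. By this measure the Saa3 window was no closer to Saa1 than the Lcn2 window was. Since Saa1 and Saa2 are also close to each other in their transcripts, the division of UMIs between them is uncertain. A C/EBP match lay at -182 to -175 in Saa1, at -183 to -176 in Saa2, at -99 to -92 in Saa3 and at -216 to -209 in Lcn2, counted from the start. Spp1 had one at -156 to -149 of the second start and none before the first. These letters occur in 9.56% of 32851 mouse promoters of the same length. The NF-kB letters GGNNNTTCC matched only in Saa3, at -187 to -179, against 15.7% of promoters. Sites of other lengths were not searched, so a window without a match may still hold one. The Saa1 window holds GG and TTCC with a longer gap between them, which these letters do not count. The STAT letters TTCNNNGAA matched in none of the 5 genes, against 7.02% of promoters. A match describes the letters and is not evidence of binding.

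The first measurement was the targeted transcript. Nus1 was at 49.2 CPM (UMIs of the gene per 1000000 UMIs of the class, 4 UMIs here, interval 13.4 to 125.9) in WT and at 37.1 CPM (26 UMIs, 24.2 to 54.3) in N-LKO Saa/Lcn2/Spp1 hepatocytes. The log2 ratio of N-LKO over WT was -0.55, with an interval from -1.93 to 1.57, so a difference was not detectable at this depth. In other hepatocytes it was -0.80 (-1.28 to -0.38). A 3′ count can still include transcript from a recombined allele, and barcodes under 500 UMIs had 57.8 CPM for WT and 37.4 CPM for N-LKO.

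The identity of the cells was checked on genes the rule did not use. Alb, which encodes albumin, was at 22463 CPM (WT) and 17299 CPM (N-LKO) in Saa/Lcn2/Spp1 hepatocytes, against 6501 and 3898 CPM in T barcodes and 9000 and 4351 CPM in endothelial barcodes. Detection of Alb says nothing here, since 100% of WT and 99% of N-LKO T barcodes also had a UMI of it. Hepatocyte secreted proteins were all measured, 25 of 25, and none differed 2-fold between the libraries, where 8.11% of 2998 genes were at least 2-fold higher and 11.7% lower in N-LKO. Among 10 of 16 hepatocyte transcription factors with enough UMIs, none differed 2-fold, with Hnf4a at 110.6 CPM for WT and 183.9 CPM for N-LKO. The part of the name that refers to osteopontin rested on N-LKO. In WT, 4 of 37 barcodes had any Spp1 UMI, and 6 of the 12 WT Spp1 UMIs (50%) came from 1 barcode.

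Saa/Lcn2/Spp1 hepatocytes formed a small share of WT hepatocytes and a large one of N-LKO hepatocytes. They were 37 of 3382 hepatocyte barcodes in WT, or 1.09% (Clopper-Pearson interval 0.771 to 1.5), and 270 of 916 in N-LKO, or 29.5% (26.5 to 32.5). The intervals did not overlap, but they count barcodes of 1 library per group and are no test of genotype. When hepatocytes rich in Malat1 were counted in the denominator, the shares were 0.772% and 14.8%. The 2 libraries shared 139 filtered barcode sequences, no Saa/Lcn2/Spp1 hepatocyte was in both, and 11 of them had a sequence that also occurs in the other library at any depth.

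Depth moved with the share of hepatocytes that met the clause. From 1000 to under 1500 UMIs, 6 of 1644 WT hepatocytes (0.365%, 0.134 to 0.793) and 32 of 333 N-LKO hepatocytes (9.61%, 6.67 to 13.3) met the clause. From 2000 to under 3000 UMIs, 14 of 637 (2.2%, 1.21 to 3.66) and 111 of 246 (45.1%, 38.8 to 51.6) did. In all 4 depth bands with barcodes in both libraries, the N-LKO share was above the WT share with no overlap of intervals. These intervals also cover counting error alone. RNA from outside the cell, called free RNA below, was not removed in the bands. Barcodes under 500 UMIs, its estimate, held 157.1 CPM of the 4 genes in WT and 894.8 CPM in N-LKO. The median depth was 2070 UMIs (1024 to 4393) in WT and 2469 UMIs (1010 to 7078) in N-LKO Saa/Lcn2/Spp1 hepatocytes, against 1514 and 1570 UMIs in other hepatocytes.

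**Figure D1:**
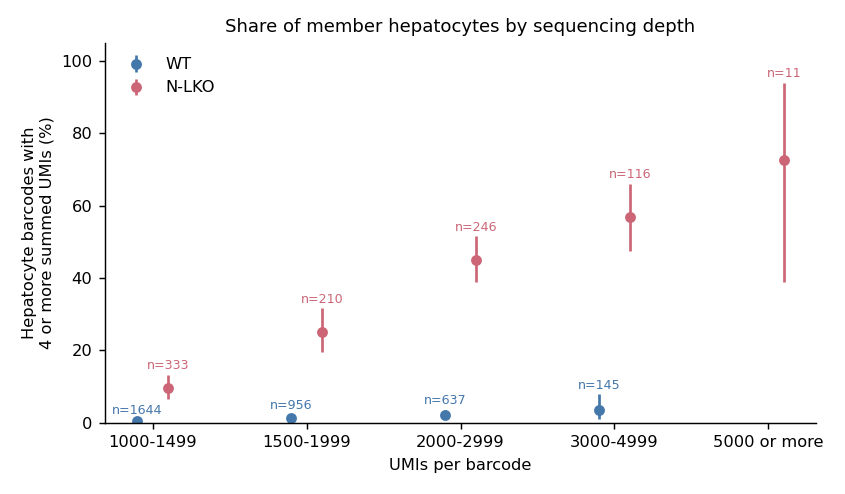
Share of hepatocyte barcodes with at least 4 summed UMIs of Saa1, Saa2, Lcn2 and Spp1 (vertical axis, %) by UMIs per barcode (horizontal axis), in WT (blue) and N-LKO (red). Points are shares, lines are 95% Clopper-Pearson intervals, and n is the number of hepatocyte barcodes in a band. N-LKO lies above WT in every band that both libraries fill, from 9.61% against 0.365% in the shallowest to 56.9% against 3.45% from 3000 to under 5000 UMIs.

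The summed count was graded rather than split in 2 in N-LKO. In WT, 2815 hepatocytes (83.2%) had none of the 4 transcripts, 29 (0.857%) had 3 UMIs and 9 (0.266%) had 4. In N-LKO, 252 (27.5%) had none, 77 (8.41%) had 3 and 55 (6.0%) had 4, and 17 (1.86%) had 24 or more. Just outside the threshold, N-LKO hepatocytes with 3 summed UMIs had 589.6 CPM of Saa1, 2131 CPM of Hp and 1367 CPM of Mt1. Just inside it, those with 4 had 724.6, 2560 and 1961 CPM of the same genes. The median sum was 7 UMIs (highest 37) among WT and 8 UMIs (highest 60) among N-LKO Saa/Lcn2/Spp1 hepatocytes.

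Barcodes under 500 UMIs served as an estimate of free RNA, although they were not tested for being empty droplets and may include small cells. Their lowest depth was 326 UMIs in WT and 377 UMIs in N-LKO, and their median mitochondrial share was 18.9% and 34.3%. They held 157.1 CPM of the 4 genes in WT and 894.8 CPM in N-LKO. At that level, a barcode of median depth would hold 0.325 UMIs of the 4 genes in WT and 2.21 in N-LKO. Scaled by how much RNA of other cell types the Saa/Lcn2/Spp1 hepatocytes held relative to those barcodes (32.9% in WT, 32.0% in N-LKO), the numbers were 0.107 and 0.706. On the same measure other hepatocytes were at 99.2% in WT and 83.8% in N-LKO, so they held more such RNA than the class. Both hepatocyte classes were required to lack 10 genes of other liver cells, and barcodes under 500 UMIs were not. The scaled numbers may therefore be too low. When 4 UMIs above the unscaled expectation were required, 28 WT (0.828%) and 165 N-LKO hepatocytes (18.0%) met the clause. The part of free RNA in the difference of shares was not tested further.

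The 4 genes differed in how they filled the sum. Saa1 was at 2126 CPM (1821 to 2467) for WT and 1607 CPM (1514 to 1703) for N-LKO Saa/Lcn2/Spp1 hepatocytes, and Saa2 was at 1487 CPM (1234 to 1777) and 1042 CPM (967.9 to 1120). Lcn2 was at 430.1 CPM (299.6 to 598.2) and 742.7 CPM (680.3 to 809.3). Spp1 was at 147.5 CPM (76.2 to 257.6) and 621.5 CPM (564.6 to 682.7). The sums were close, 4190 and 4013 CPM. Over the whole class, serum amyloid A was higher in WT, and Lcn2 and Spp1 were higher in N-LKO. For Lcn2 this held near the threshold and not at the highest sums. At 4 to 7 summed UMIs, Lcn2 was at 91.5 CPM (24.9 to 234.2) for WT and 488.6 CPM (414.2 to 572.4) for N-LKO. At 12 or more it was at 1291 CPM (827.2 to 1921, 7 barcodes) and 1107 CPM (978.2 to 1249). For Spp1 the intervals overlapped at 4 to 7 summed UMIs, at 160.1 CPM (64.4 to 329.8) for WT and 265.0 CPM (211.1 to 328.5) for N-LKO. At 12 or more, Spp1 was at 53.8 CPM (1.36 to 299.7) and 1124 CPM (993.9 to 1266). Without the barcode that held most Spp1 UMIs, WT Spp1 was at 74.8 CPM. The clause acts on the sum, so the levels of the 4 genes are not independent of each other.

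Levels outside these cells were also higher in N-LKO. In other hepatocytes, Saa1 was at 60.8 CPM for WT and 210 CPM for N-LKO, Lcn2 at 8.91 and 175.7 CPM, and Spp1 at 17.5 and 84.9 CPM. Free RNA gives UMIs in any cell, so T barcodes and endothelial barcodes served as comparison classes. T barcodes had Saa1 at 26.3 and 178.3 CPM, Lcn2 at 3.29 and 84.9 CPM, and Spp1 at 23 and 125.3 CPM. Endothelial barcodes had Spp1 at 20.7 and 109.0 CPM. The Spp1 level of other hepatocytes is limited by the clause on the summed UMIs, so its place among these classes is not read. Bile duct barcodes held 6244 CPM of Spp1 in WT and 5325 CPM in N-LKO, and neutrophil barcodes held 742.2 and 1403 CPM of Lcn2.

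**Figure D2:**
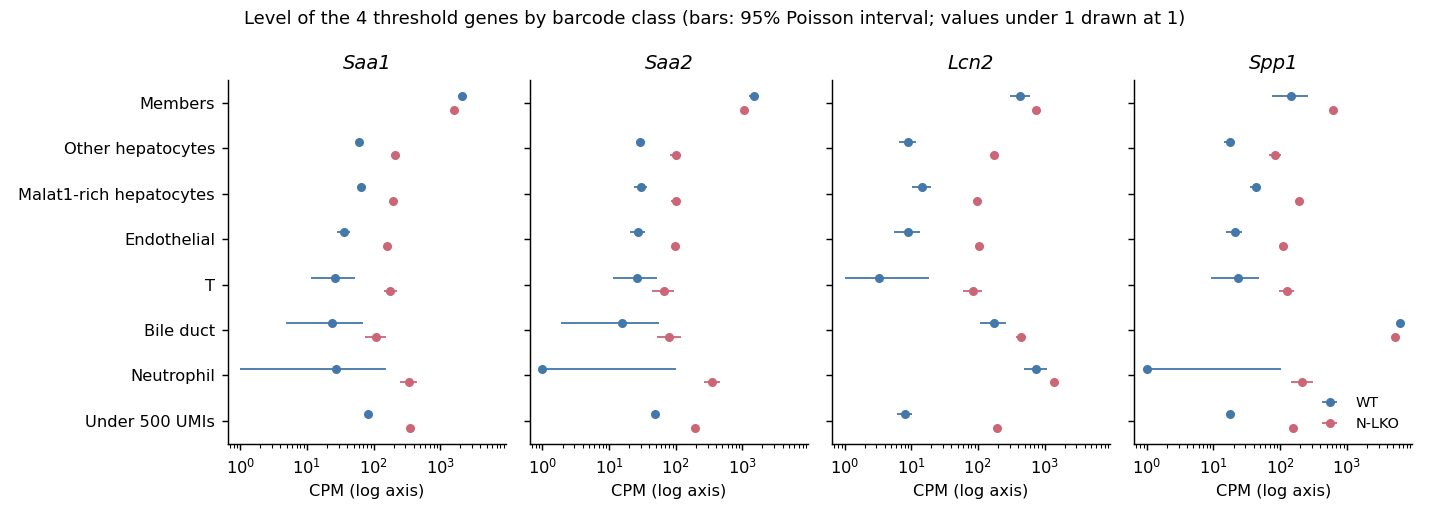
Level of Saa1, Saa2, Lcn2 and Spp1 (horizontal axes, CPM, log scale) in the Saa/Lcn2/Spp1 hepatocytes (Members) and 7 other barcode classes, in WT (blue) and N-LKO (red). Points are CPM of summed UMIs, and lines are 95% Poisson intervals. Spp1 is highest in bile duct barcodes, at 6244 and 5325 CPM, and all 4 genes lie higher in N-LKO than in WT barcodes under 500 UMIs.

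Shares of barcodes with a UMI were also counted after thinning. The class was chosen on unthinned UMIs of these genes, so its excess over T barcodes follows from the rule and supports nothing. Deeper barcodes could meet the clause at a lower level, so differences between the libraries are not corrected for depth of selection. After every barcode was thinned to 1000 UMIs, Spp1 was detected in 5.41% of WT and 26.3% of N-LKO Saa/Lcn2/Spp1 hepatocytes (10.8% and 42.2% unthinned), against 1.75% and 7.94% of T barcodes (1.75% and 11.4% unthinned). Lcn2 was detected in 24.3% and 45.9%, against 0.437% and 8.89% of T barcodes. Saa1 went the other way, with 91.9% in WT and 73.0% in N-LKO, against 2.18% and 17.1% of T barcodes. The median depth before thinning was 1210 UMIs in WT and 1277 UMIs in N-LKO T barcodes.

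Combinations of the transcripts within single barcodes were counted from the same UMIs, so they describe the class and add no support. They were not thinned, and free RNA was not subtracted. Barcodes under 500 UMIs held Lcn2 at 7.96 CPM for WT and 194.8 CPM for N-LKO, and Spp1 at 18.0 and 158.1 CPM. The part of depth and free RNA in the combinations was not tested. Of the WT Saa/Lcn2/Spp1 hepatocytes, 20 of 37 (54.1%, 36.9 to 70.5) had Saa1 or Saa2 without Lcn2 and Spp1, against 45 of 270 (16.7%, 12.4 to 21.7) in N-LKO. All of Saa, Lcn2 and Spp1 were detected together in 2 WT barcodes (5.41%, 0.661 to 18.2) and 76 N-LKO barcodes (28.1%, 22.9 to 33.9). Barcodes with Lcn2 and Spp1 but no serum amyloid A were not seen in WT, which allows up to 9.49%, and numbered 12 (4.44%, 2.32 to 7.63) in N-LKO. Serum amyloid A made up 50% or more of the sum in 36 WT (97.3%) and 196 N-LKO barcodes (72.6%), Spp1 in 1 (2.7%) and 33 (12.2%), and Lcn2 in 0 and 31 (11.5%).

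**Figure D3:**
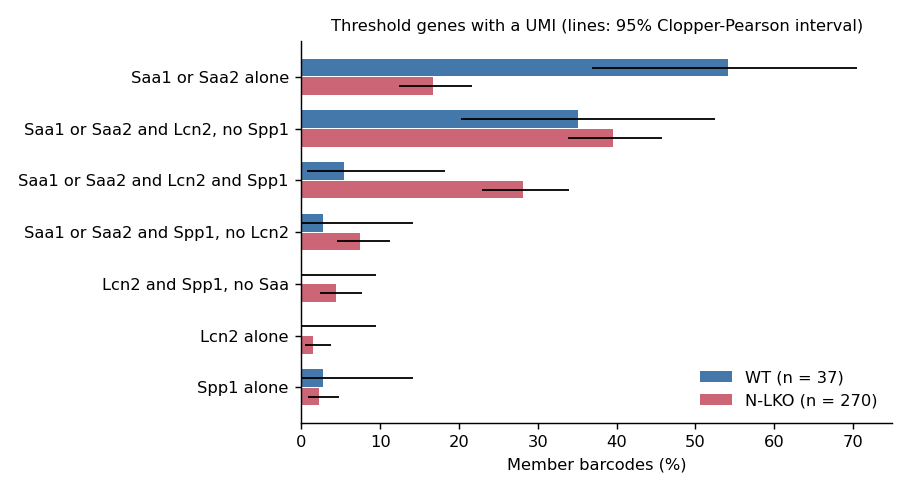
Share of the Saa/Lcn2/Spp1 hepatocytes (horizontal axis, %) with each combination of Saa1 or Saa2, Lcn2 and Spp1, in WT (blue, 37 barcodes) and N-LKO (red, 270 barcodes). Bars are shares and lines are 95% Clopper-Pearson intervals. Barcodes were not thinned, and free RNA was not subtracted. Serum amyloid A alone takes 54.1% in WT and 16.7% in N-LKO, and all of Saa, Lcn2 and Spp1 take 5.41% and 28.1%.

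Within N-LKO, barcodes led by different genes differed in other transcripts. These groups were cut on the 4 genes, so only the other transcripts are described, and the genes shown were chosen after their values were seen. The 33 barcodes led by Spp1 had 204.4 CPM (121.1 to 323.0) of Sox9, a factor of bile duct and progenitor cells, against 36.2 CPM (21.4 to 57.1) in the 196 led by serum amyloid A. They had 3872 CPM (3472 to 4305) of Hp, which encodes haptoglobin, against 2565 CPM (2426 to 2709), and 2350 CPM (2041 to 2693) of Clu, a secreted chaperone, against 1494 CPM (1389 to 1606). Anxa5, a phospholipid-binding annexin, was at 488.2 against 239.0 CPM. All 4 of these genes were thus higher where Spp1 led.

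Other hepatocyte genes ran the opposite way in the same N-LKO groups. Orm1, an orosomucoid, was at 931.1 CPM (740.5 to 1156) where Spp1 led and 1956 CPM (1835 to 2083) where serum amyloid A led. Mt1 was at 1101 and 2153 CPM, the pericentral cytochrome Cyp2e1 at 113.5 and 367.5 CPM, and Alb at 13637 and 18187 CPM. Barcodes led by Lcn2 lay between the other groups for Hp (2955 CPM), Mt1 (1515 CPM), Orm1 (1655 CPM) and Alb (15024 CPM). Epcam, a surface protein of duct cells, had 2 UMIs in the group led by Spp1, and 4 across all N-LKO Saa/Lcn2/Spp1 hepatocytes. Over 10 duct markers, Sox9 included, the N-LKO class held 76 UMIs (108.3 CPM), against 86.6 CPM in other hepatocytes and 50.3 CPM in barcodes under 500 UMIs. Tspan8 had 19 of them, Krt19 and Cldn4 had 1 each, and Krt7, Cftr, Tff2 and Dcdc2a had none. The part of duct RNA in Spp1 and Sox9 was not tested. Sox9 over the whole class was at 86.0 CPM for WT and 65.6 CPM for N-LKO, with an interval of the ratio that held equality.

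**Figure D4:**
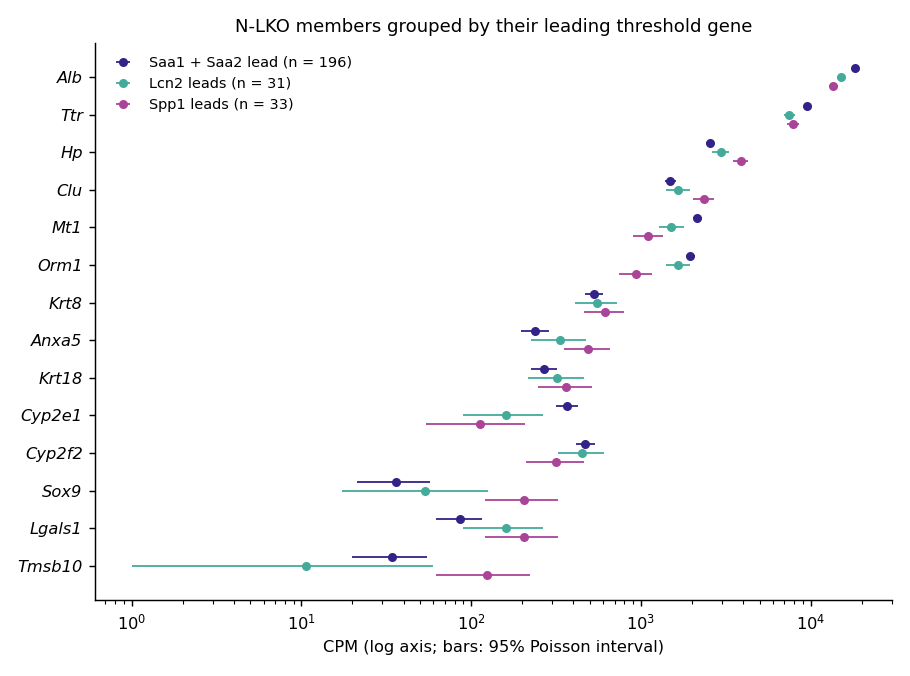
Level of 14 genes (horizontal axis, CPM, log scale) in N-LKO Saa/Lcn2/Spp1 hepatocytes grouped by the gene or gene pair that makes up 50% or more of the sum, Saa1 plus Saa2 (196), Lcn2 (31) or Spp1 (33). Points are CPM of summed UMIs and lines are 95% Poisson intervals. Sox9 and Hp are highest, and Orm1 and Mt1 lowest, in the group led by Spp1.

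The next comparison set N-LKO against WT within the Saa/Lcn2/Spp1 hepatocytes. Genes with at least 50 CPM in 1 library were compared by their log2 ratio, and a ratio was called clear when it was at least 2-fold with a counting interval that excluded equality. Of 2998 genes, 243 were at least 2-fold higher in N-LKO (8.11%) and 350 lower (11.7%). Clear calls numbered 87 higher (2.9%) and 165 lower (5.5%). The gene lists below hold few genes, and no list was tested against these shares. The median log2 ratio was -0.12, and single ratios are given without removing this shift. At the level limit, 50 CPM in WT was 4.07 UMIs, so a gene seen in 1 library only can pass with few UMIs. Under median ratio scaling the split was 294 higher and 278 lower.

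The acute phase list of 28 genes had 25 measured, of which 5 were clearly higher in N-LKO and 1 clearly lower. Over all genes, 2.9% were clearly higher and 5.5% clearly lower. The median log2 ratio of the list was 0.57, which is 0.68 relative to the median over all genes. Hp was at 1192 CPM for WT and 2877 CPM for N-LKO, a log2 ratio of 1.26 (0.98 to 1.58). Per barcode, the median was 2 UMIs of Hp in WT (0 to 10) and 6 UMIs in N-LKO (0 to 40). Orm2 was at 73.7 and 203.9 CPM (log2 1.36, 0.31 to 2.94), and Fgl1, a fibrinogen-like protein, at 73.7 and 265.1 CPM (log2 1.73, 0.70 to 3.31). Apcs, which encodes serum amyloid P, and Itih3, an inter-alpha-trypsin inhibitor chain, had log2 ratios of 1.44 (0.31 to 3.22) and 1.08 (0.31 to 2.11).

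Several acute phase genes stayed under 2-fold. Fgb, the fibrinogen beta chain, was at 2802 CPM for WT and 4505 CPM for N-LKO (log2 0.68, 0.49 to 0.89). Hpx, hemopexin, was at 2581 and 3621 CPM, and C3, the central complement protein, at 970.8 and 1887 CPM. Hamp, the iron hormone hepcidin, was lower at 3359 CPM in N-LKO against 4092 CPM in WT (log2 -0.29, -0.45 to -0.12). Crp was at 503.8 and 553.1 CPM and Serpina3n at 221.2 and 223.8 CPM, with intervals of the ratio that held equality. In other hepatocytes the same ratios were 1.32 for Hp, 3.34 for Orm2, 2.11 for Fgl1 and 0.68 for Fgb, so these genes were also higher in N-LKO outside the class. The part of free RNA in those ratios was not tested.

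Saa3 was the 1 acute phase gene that was clearly lower in N-LKO Saa/Lcn2/Spp1 hepatocytes. It encodes the serum amyloid A form that macrophages and fat cells also make. WT barcodes held 37 UMIs in 12 of 37 barcodes, or 454.7 CPM, and N-LKO barcodes held 33 UMIs in 18 of 270, or 47.0 CPM. The log2 ratio was -3.27 (-4.00 to -2.56) within the class and 1.40 (0.32 to 2.36) in other hepatocytes, where Saa3 was at 4.63 and 12 CPM. A single WT barcode held 35.1% of the UMIs, and without it WT was at 303.6 CPM. With at least 10 Cps1 UMIs required, which left 5 WT barcodes, the log2 ratio turned to 1.53.

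Cxcl9, a chemokine induced by interferon gamma, was spread in the same way over few WT barcodes. It had 28 UMIs in 9 WT barcodes (344.1 CPM, 230.9 without the highest barcode) and 15 UMIs in 10 N-LKO barcodes (21.4 CPM). The log2 ratio was -3.99 (-5.02 to -3.05), against -0.12 (-0.96 to 0.59) in other hepatocytes. Among markers of other cells, those of T and natural killer cells also ran higher in the WT class, at 122.9 CPM (10 UMIs over 10 markers, 3 of them with a UMI) against 65.6 CPM in N-LKO. Ccl5, a chemokine of those cells, had 8 of the 10 WT UMIs, 7 of them in 1 barcode, and a log2 ratio of -1.64 (-2.80 to -0.21). Macrophage markers had 8 UMIs (98.3 CPM) and duct markers 9 UMIs (110.6 CPM) in the WT class, and 10 neutrophil and 10 stellate cell markers had none. The part of such RNA in Saa3 and Cxcl9 was not tested.

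Metallothioneins, small proteins that bind zinc and copper, were higher in N-LKO, and Mt1 had the largest ratio among genes with at least 1000 CPM in 1 library. It was at 184.3 CPM in WT, with a UMI in 7 of 37 barcodes, a median of 0 and a highest value of 4. In N-LKO it was at 1944 CPM, with a UMI in 236 of 270 barcodes, a median of 3 and a highest value of 28. The log2 ratio was 3.35 (2.67 to 4.24), and Mt2, with 3 WT UMIs, had 3.07 (1.73 to 5.58). In other hepatocytes the ratios were larger, 4.95 for Mt1 and 5.89 for Mt2. Barcodes under 500 UMIs moved in the same direction, with Mt1 at 59.3 CPM for WT and 591.3 CPM for N-LKO. After thinning, Mt1 was detected in 5.41% of WT and 73.0% of N-LKO Saa/Lcn2/Spp1 hepatocytes, against 2.18% and 22.9% of T barcodes.

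Signaling genes upstream of the acute phase response were sparsely captured, with 8 of 24 measured, 2 clearly higher and none lower in N-LKO (median log2 0.68). Over all genes, 2.9% were clearly higher. Il1r1, the interleukin 1 receptor, was at 24.6 CPM for WT (2 UMIs) and 181.0 CPM for N-LKO (log2 2.56, 1.00 to 5.94). Cebpb, a C/EBP factor of the acute phase response, was at 86.0 and 216.7 CPM (log2 1.24, 0.25 to 2.67). The ratios of Stat3 and Il6st, the shared receptor chain gp130, were 1.07 and 1.57, with intervals that held equality. Jak1 was at 122.9 and 134.0 CPM. Among receptors of osteopontin, 2 of 10 genes were measured and neither differed 2-fold, with the integrin subunit Itgb1 at 172.0 and 154.0 CPM.

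Major urinary proteins and other male, growth hormone dependent genes were lower in N-LKO. Of 22 listed genes, 15 were measured, 11 were at least 2-fold lower and 9 of those clearly so, and none was higher (median log2 -1.30). Over all genes, 11.7% were lower and 5.5% clearly so. Slco1a1, an organic anion transporter, had 18 UMIs in 13 WT barcodes and none in 270 N-LKO barcodes, so it was at least 51.7-fold lower against a floor of 3 counts over the class. Mup3 was at 14758 CPM for WT and 6006 CPM for N-LKO (log2 -1.30, -1.39 to -1.20), with medians of 28 and 10 UMIs per barcode. Mup7 was at 430.1 and 25.7 CPM (log2 -4.05, -4.97 to -3.21), and the growth hormone receptor Ghr at 1487 and 719.9 CPM (log2 -1.05, -1.34 to -0.75).

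Mup20 departed from the other urinary proteins, at 44054 CPM for WT and 57039 CPM for N-LKO (log2 0.37, 0.32 to 0.42). Many Mup genes are near-identical copies, so the division of UMIs among such copies is uncertain. Which of the genes named here this affects was not tested. Mup1 and Mup12 had log2 ratios of -4.46 and -3.78, from 11 and 13 WT UMIs. In other hepatocytes the ratios were -3.79 for Mup1, -3.94 for Mup7, -1.55 for Mup3 and 0.28 for Mup20, the same directions as in the class.

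Of 12 measured lipid genes, 3 were clearly lower in N-LKO, against 5.5% of all genes, and none was higher (median log2 -0.49). Fasn, fatty acid synthase, was at 294.9 CPM for WT and 94.1 CPM for N-LKO (log2 -1.67, -2.34 to -0.91), Acaca, acetyl-CoA carboxylase, at 393.2 and 154.0 CPM, and Acly, ATP citrate lyase, at 294.9 and 116.9 CPM. The desaturase Scd1 was at 10740 and 8945 CPM (log2 -0.26, -0.37 to -0.16), and the fatty acid carrier Fabp1 at 11785 and 7460 CPM. The N-LKO values of Fasn in the class and in other hepatocytes were close, 94.1 and 90.9 CPM.

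**Figure D5:**
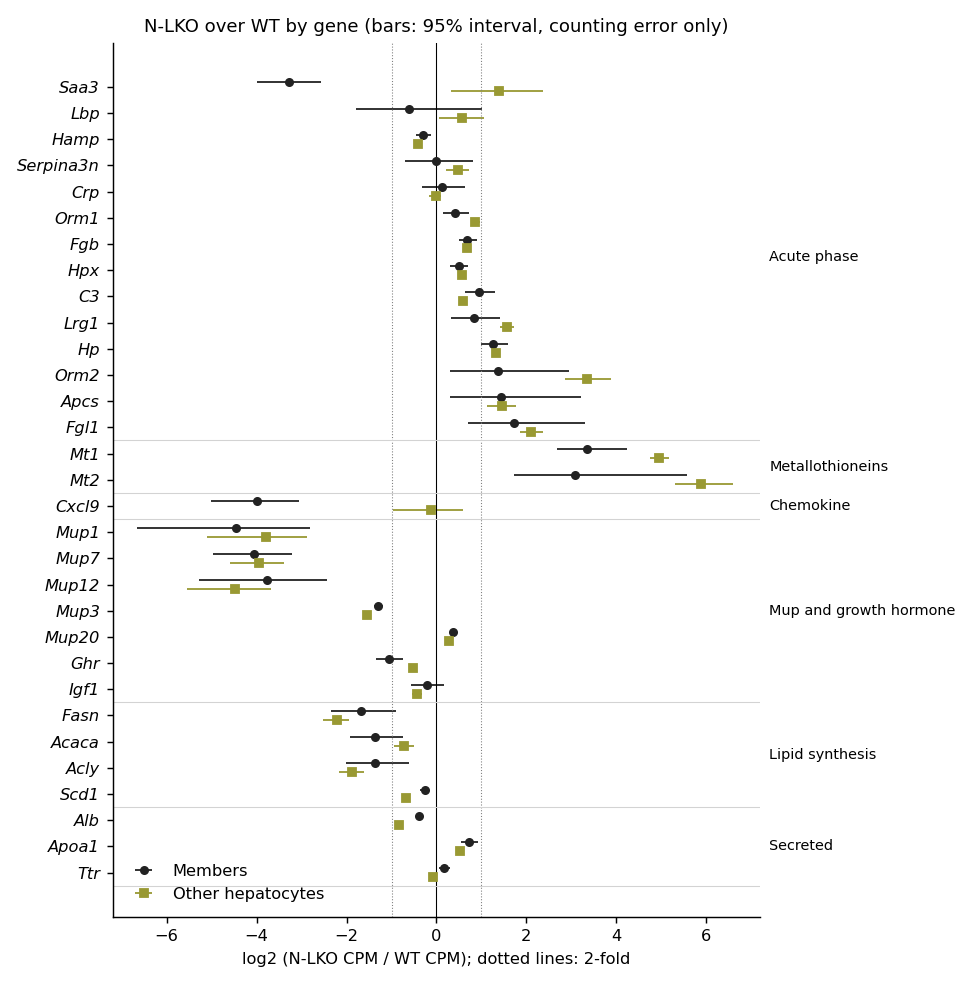
Log2 ratio of N-LKO over WT CPM (horizontal axis) for 31 genes in the Saa/Lcn2/Spp1 hepatocytes (Members, black circles) and in other hepatocytes (olive squares), with the gene group at the right. Lines are 95% counting intervals and dotted lines mark 2-fold. Mt1 and Mt2 lie to the right and most Mup genes to the left in both classes, and Saa3 lies at -3.27 in the class and 1.40 outside it.

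Zonation genes differed one by one. Of the pericentral list, 10 of 18 genes were measured, 2 clearly higher and 2 clearly lower in N-LKO. Over all genes, these shares were 2.9% and 5.5%. Cyp3a11, a drug-metabolizing cytochrome, was at 49.2 CPM in WT (4 UMIs in 3 barcodes) and 575.9 CPM in N-LKO (404 UMIs in 122 barcodes), or a log2 value of 3.38 (2.18 to 5.43). Glul, glutamine synthetase, was at 159.8 and 71.3 CPM (log2 -1.20, -2.07 to -0.16). The periportal list had 15 of 18 measured, with Sds, serine dehydratase, clearly higher (log2 1.01, 0.02 to 2.45) and Gls2, liver glutaminase, clearly lower (log2 -1.09, -1.62 to -0.50).

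Oncofetal, ductal and cell cycle genes were measured in part. Ly6d, a surface protein listed with oncofetal genes, had 3 UMIs in 1 WT barcode (36.9 CPM) and 240 UMIs in 99 N-LKO barcodes (342.1 CPM), a log2 ratio of 2.99 (1.65 to 5.50). It was the 1 of 15 oncofetal genes that reached the level limit, and Afp, the alpha-fetoprotein of fetal liver and liver tumors, had 1 UMI in each library. Of 18 ductal and progenitor genes, 3 were measured and none differed 2-fold. The keratins of hepatocytes were at 442.4 and 570.2 CPM for Krt8 and 159.8 and 286.5 CPM for Krt18. Ccnd1, cyclin D1, had no WT UMI and 44 in N-LKO, at least 1.70-fold higher, and Cdkn1a, the inhibitor p21, had a log2 ratio of 1.07 (-0.18 to 3.14).

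Injury and cytoskeleton genes had 11 of 18 measured, 3 clearly higher and 1 clearly lower in N-LKO, against 2.9% and 5.5% of all genes. Clu was at 983.1 and 1676 CPM, under 2-fold (log2 0.76, 0.44 to 1.12). Tmsb4x, an actin-binding thymosin that is abundant in leukocytes, was at 221.2 and 491.8 CPM (log2 1.12, 0.47 to 1.92), and Lgals1, galectin 1, at 24.6 CPM (2 UMIs) and 115.5 CPM. Cd9 had no WT UMI and 41 in N-LKO, at least 1.59-fold higher, and Tubb2a was lower (log2 -1.07, -1.87 to -0.12). Cd74, the class II invariant chain of antigen-presenting cells, led the 10 highest ratios with no WT UMI and 137 in N-LKO, at least 5.30-fold higher. The macrophage markers together were at 98.3 CPM for WT and 420.5 CPM for N-LKO Saa/Lcn2/Spp1 hepatocytes, with Marco at 0 in both. B and plasma cell markers were at 61.4 and 203.9 CPM, and 47.4% of the Igkc UMIs of N-LKO came from 1 barcode. The part of such RNA in Cd74, Tmsb4x and Lgals1 was not tested.

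Most stress and glycosylation genes stayed under 2-fold. Of the unfolded protein response list, 15 of 22 genes were measured and 1 was clearly higher in N-LKO, against 2.9% of all genes. That gene was Manf, a secreted factor of the endoplasmic reticulum (86.0 and 249.5 CPM, log2 1.44, 0.46 to 2.87). Hspa5, the chaperone BiP, was at 503.8 and 896.7 CPM (log2 0.82, 0.38 to 1.32). Of the dolichol and N-glycan list, 9 of 30 were measured, 2 were at least 2-fold higher and 1 of those clearly. That was Ostc, a subunit of oligosaccharyltransferase (3 UMIs in WT, log2 1.47, 0.09 to 3.99). The other was Rpn2, with 3 WT and 68 N-LKO UMIs (log2 1.18). Ost4 was at 221.2 and 128.3 CPM. Antioxidant NRF2 targets (13 of 20 measured) and respiratory chain subunits (20 of 20) had no gene past 2-fold, with medians of -0.32 and -0.07. Genes that respond to cell isolation had 13 of 20 measured and 2 clearly higher, Egr1 (log2 2.21, 0.63 to 5.59) and Fos (log2 2.30, 0.34 to 8.20), from 2 and 1 WT UMIs.

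The remaining genes with the highest ratios had no WT UMI. Ndufs3, Frrs1, Nos1ap, Lgmn and Mid1 had 61, 57, 48, 47 and 44 UMIs in N-LKO, which is at least 2.36, 2.20, 1.86, 1.82 and 1.70-fold higher. Among the 10 lowest, Sult2a8, a bile acid sulfotransferase, was at 380.9 CPM for WT and 31.4 CPM for N-LKO (log2 -3.59, -4.46 to -2.77), close to its ratio of -3.24 in other hepatocytes. Tvp23b was at 147.5 and 18.5 CPM (log2 -3.00, -4.24 to -1.73), against 0.19 in other hepatocytes. Cryl1 and Grm8 had ratios of -3.27 and -4.25, from 9 and 5 WT UMIs.

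The last comparison set the Saa/Lcn2/Spp1 hepatocytes against other hepatocytes of their own library. These classes were cut on UMIs of the same barcodes and differ in depth, so the ratios describe the class and are not tests. In WT, 298 of 2909 genes were at least 2-fold higher in the class (10.2%) and 144 lower (4.95%), of which 119 (4.09%) and 43 (1.48%) were clear. In N-LKO, 5 of 3073 genes were at least 2-fold higher (0.163%) and 122 lower (3.97%), and the same numbers were clear, 5 (0.163%) and 122 (3.97%). Of 2550 genes measured in both libraries, 1 was clearly higher in both and 7 clearly lower in both.

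Orm2 was the gene clearly higher in both, with a log2 ratio to other hepatocytes of 3.18 (1.56 to 4.30) in WT and 1.19 (0.82 to 1.57) in N-LKO. Orm1 had 1.37 (1.07 to 1.64) and 0.93 (0.81 to 1.05), Hpx 0.87 (0.66 to 1.06) and 0.78 (0.70 to 0.86), and Hamp 0.71 and 0.85. Over the acute phase list, 7 of 25 genes were at least 2-fold higher in WT (6 clearly, median 0.60) and 1 of 24 in N-LKO (median 0.48). Over all genes, 10.2% in WT (4.09% clearly) and 0.163% in N-LKO were at least 2-fold higher, with medians of 0.19 and -0.05. The clear WT genes were Saa3, Orm2, Steap4, Orm1, Lrg1 and Serpina3n. Saa3 had a ratio of 6.61 (5.85 to 7.4) in WT and 1.94 (1.03 to 2.99) in N-LKO, and Mt1 had 2.32 (1.42 to 3.03) and 0.72 (0.61 to 0.83).

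Beside orosomucoids and hemopexin, the 10 genes highest in both libraries were modest in size. Gsta4, a glutathione transferase, had log2 ratios of 1.26 in WT (5 UMIs in the class) and 1.09 (0.34 to 1.86) in N-LKO. Wfdc2, a secreted protease inhibitor of epithelia, had 1.99 (0.41 to 3.05) and 0.84 (0.17 to 1.52). Krt18, Eno1, Cbx3, Churc1 and Aldh1b1 had ratios between 0.76 and 1.20 in both. In WT they rested on 13, 6, 11, 11 and 8 UMIs in the class, and the WT interval of Aldh1b1 (-0.55 to 1.67) held equality. The 5 genes past 2-fold in N-LKO were Spink1, a trypsin inhibitor (1.21), Orm2, Gsta4, Hsd17b6 (1.05) and Eppk1 (1.02). The 10 lowest in both were mostly immune genes, Igha, Cd52, Igkc, Lyz2, Lrmda, Tmsb4x, Zeb2, Arhgap15, Wfdc17 and Cmss1.

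Pericentral genes were lower in the class than in other hepatocytes of WT. In WT, 8 of 14 were at least 2-fold lower (6 clearly, median -1.14), among them Cyp2e1 (-1.44, -2.24 to -0.82) and Glul (-1.26), and none of 11 was 2-fold lower in N-LKO (median -0.21). Over all genes, 4.95% in WT and 3.97% in N-LKO were at least 2-fold lower. Periportal genes had medians of -0.17 and 0.26. Markers of macrophages, endothelial, T and natural killer, B and plasma and stellate cells, 50 genes in sum, were lower in the class than in other hepatocytes in both libraries, 344.1 against 1037 CPM in WT and 801.2 against 2101 CPM in N-LKO. Bile duct markers, which that sum leaves out, ran the other way, at 110.6 against 62.7 CPM in WT and 108.3 against 86.6 CPM in N-LKO. Mitochondrial UMIs had a median of 14.7% against 21.1% in WT and 15.4% against 17.4% in N-LKO. The part of depth, free RNA and mitochondrial content in these ratios was not tested.

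Some genes above were chosen after their values were seen rather than by the naming rule. They are Hp, Apcs, Itih3, C3, Crp, Serpina3n, Lrg1, Steap4, Stat3, Ghr, Acly, Glul, Cyp2e1, Tubb2a, Anxa5, Spink1, Hsd17b6, Eppk1, Afp, Epcam, Tspan8, Krt19, Cldn4, Ccl5 and Nus1.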

How the data were processed

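Liver cells of 1 WT and 1 N-LKO library were captured with 10x 3′ reagents. The authors counted UMIs with Cell Ranger (7.1.0 per the file headers), and the deposited matrices hold these counts unscaled, as whole numbers for each gene in each barcode. The submitters' processing notes name mm9 and Seurat. The annotation and the use of intron reads were not given in the sources used here. Barcodes were classed by the rule given above. Doublets were scored with Scrublet in scanpy 1.11.5 and not removed, and a score over 0.25 was reached by 1723 WT (8.55%) and 2364 N-LKO barcodes (10.6%). Whether a barcode was an empty droplet was not tested.

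UMIs were summed per library and class and scaled to CPM, with exact Poisson intervals. Log2 ratios had 0.5 UMI added to each sum, with exact conditional binomial intervals. Genes needed 50 CPM in 1 library. Genes were named as follows: the rule genes, the 10 highest and 10 lowest ratios of N-LKO over WT, the 10 highest and 10 lowest of class over other hepatocytes in both libraries, and from each of 19 gene lists those with the highest level or largest ratio. The cells, lists and rules were chosen with earlier results of these data known. The alternatives changed the filters, the thresholds, the scaling, the treatment of free RNA and the doublets. Scripts used Python 3.11.15, numpy 2.4.6, scipy 1.17.1 and pandas 2.3.3, and were tested on simulated data.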

Additional observations from a re-analysis of the deposited data

How the results depend on the processing

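The share of hepatocytes in the class, 1.09% in WT and 29.5% in N-LKO, was higher in N-LKO under the 12 alternatives that change the barcodes. The shares were 2.43% and 49.6% at 2000 UMIs or more, 2.23% and 34.3% at most 10% mitochondrial UMIs, 1.72% and 51.1% at 10 or more Cps1 UMIs, 0.473% and 15.2% at 8 or more summed UMIs, 0.71% and 17.7% at 0.3% of UMIs and 2.13% and 35.0% after thinning. The N-LKO share was 24.3% at 500 UMIs or more and 17.3% with no Malat1 limit. Of alternatives chosen after seeing the data, 12 or more summed UMIs gave 0.207% and 8.73%, and 4 UMIs above free RNA gave 18.0% in N-LKO. Counts of genes moved more, and fewer WT barcodes set a lower UMI count at the level limit. Genes higher in N-LKO numbered 467 with 10 Cps1 UMIs, 487 with free RNA subtracted, 1238 at 5 CPM and 594 at 12 summed UMIs. Genes lower numbered 637 at 2000 UMIs, 1492 at 10% mitochondrial, 2001 with 10 Cps1 UMIs, 1034 at 8 summed UMIs, 694 at 0.3%, 674 with free RNA subtracted, 2179 at 5 CPM and 2063 at 12 summed UMIs. Acute phase genes higher in N-LKO numbered 9 at 10% mitochondrial and 2 at 8 or 12 summed UMIs, and those lower, 1 in the report, numbered 5 at 10% mitochondrial, 2 at 12 summed UMIs and 0 with 10 Cps1 UMIs. Genes higher in the class than in other hepatocytes, WT then N-LKO, numbered 644 and 9 at 2000 UMIs, 1480 and 375 at 10% mitochondrial, 173 and 155 with no Malat1 limit, 2106 and 219 with 10 Cps1 UMIs, 1063 and 11 at 8 summed UMIs, 1396 and 122 with free RNA subtracted, 2312 and 394 at 5 CPM and 2178 and 38 at 12 summed UMIs. In WT alone they numbered 663 at 0.3%, 168 after thinning, 448 without barcodes over the Scrublet score and 182 under median ratio scaling. At 10% mitochondrial, which left 4 WT barcodes, the log2 ratio of N-LKO over WT turned to -1.62 for Arhgap15, -0.39 for Ccnd1, -0.54 for Cdkn1a, -1.0 for Cebpb, -1.98 for Igkc, -0.88 for Il6st, Lgmn and Ostc, and -0.03 for Lrmda. With 10 Cps1 UMIs (5 WT barcodes) it turned to -0.06 for Orm2, 1.53 for Saa3 and -0.32 for Tmsb4x, with free RNA subtracted to -3.14 for Zeb2, and at 12 summed UMIs (7 WT barcodes) to -0.88 for Rpn2. Where the cause is not the smaller number of barcodes or genes, it was not tested. Mt1, Mt2, Mup1, Mup3, Mup7, Cyp3a11, Ly6d and Cxcl9 were at least 2-fold apart in the same direction under all 16 alternatives. The log2 ratio of Lcn2 (0.77 in the report) ranged from -0.25 to 2.39 under them, and that of Saa1 (-0.41) from -0.60 to 0.81. No paired analysis was possible because each group had 1 library. The 37 WT barcodes held 81377 UMIs, which limits the precision of every ratio.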
